A study of Homo sapiens with 30 samples.

Results

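The regions described here are the places where reads piled up into called peaks in the shallow global run-on libraries of HT1080, a human fibrosarcoma cell line. In a global run-on assay (GRO-seq), nuclei are supplied with nucleotides (NTP) and a bromouridine label, RNA polymerases already engaged on DNA extend their transcripts, and the labelled RNA is pulled down and sequenced. All 1819 peaks of the 6 libraries with NTP of repeats 1 and 2 were taken and merged wherever they overlapped by 1 bp or more, which gave 1691 regions. The peaks of 15 libraries of the series, treated in the same way, made 17053 regions. The 6 libraries were 2 from cells labelled hNABP2 (hSSB1) KO, 2 from cells labelled hNABP1 (hSSB2) KO and 2 from WT cells, all without any further treatment and at passages 10 to 15. hNABP2 and hNABP1 are single-stranded DNA binding proteins that each join INTS3 and INIP in the SOSS complex, and the study asked about a role of hNABP2 in transcription. The sources used here do not say how the knockouts were made or whether each is 1 clone. Nothing in the labels says that the repeats came from separate cultures, so every spread and p below is a spread between libraries and may be technical.

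Nuclear transcription is shared by RNA polymerases I, II and III. Polymerase I makes the ribosomal RNA precursor, polymerase II makes messenger RNAs, most long non-coding RNAs and the replication-dependent histone messages, and polymerase III makes transfer RNAs, the 7SL RNA of the signal recognition particle, the RNA of RNase P and other short structural RNAs. On many protein-coding genes polymerase II halts just downstream of the start before it is released, and run-on signal then stands high in the first part of the gene. Short, heavily transcribed genes and such promoter-proximal stretches are therefore where run-on peaks are commonly seen.

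The sequences shown are RefSeq promoters (GRCh38.p14, 250 bases before to 50 bases after the start, gene strand) of genes whose regions recurred: 2 histone genes called in libraries of 2 genotypes, KRCC1, the protein-coding promoter called in 3 libraries, and 2 promoters called in both repeats labelled hNABP1 KO. Capitals mark TATAAA, the TATA box core, and CCAAT, on either strand, so that ATTGG in capitals is CCAAT on the other strand. In these windows the matches do not overlap each other. The windows are chr6:26027234-26027533 (minus strand) for H4C2, chr6:26033569-26033868 (minus) for H2AC4, chr2:88055734-88056033 (minus) for KRCC1, chr10:6202682-6202981 (plus) for PFKFB3 and chr9:111484334-111484633 (minus) for ECPAS.
H4C2: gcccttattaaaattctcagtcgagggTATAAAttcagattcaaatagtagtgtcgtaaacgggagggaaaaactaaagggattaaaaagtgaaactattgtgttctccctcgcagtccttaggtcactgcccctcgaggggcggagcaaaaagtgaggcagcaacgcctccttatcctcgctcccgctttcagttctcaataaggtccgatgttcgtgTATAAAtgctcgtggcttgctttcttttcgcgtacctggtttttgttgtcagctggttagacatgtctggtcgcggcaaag
H2AC4: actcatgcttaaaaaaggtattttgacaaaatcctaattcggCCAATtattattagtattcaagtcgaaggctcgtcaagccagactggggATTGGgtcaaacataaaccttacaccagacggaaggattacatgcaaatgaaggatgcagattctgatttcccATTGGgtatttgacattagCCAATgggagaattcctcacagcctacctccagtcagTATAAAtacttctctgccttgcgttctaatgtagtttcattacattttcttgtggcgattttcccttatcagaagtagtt
KRCC1: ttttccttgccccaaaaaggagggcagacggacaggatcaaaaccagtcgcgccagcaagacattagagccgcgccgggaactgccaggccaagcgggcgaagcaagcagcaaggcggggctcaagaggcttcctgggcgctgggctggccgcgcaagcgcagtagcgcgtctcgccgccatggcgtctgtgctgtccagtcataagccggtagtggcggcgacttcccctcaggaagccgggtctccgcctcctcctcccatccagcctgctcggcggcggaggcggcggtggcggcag
PFKFB3: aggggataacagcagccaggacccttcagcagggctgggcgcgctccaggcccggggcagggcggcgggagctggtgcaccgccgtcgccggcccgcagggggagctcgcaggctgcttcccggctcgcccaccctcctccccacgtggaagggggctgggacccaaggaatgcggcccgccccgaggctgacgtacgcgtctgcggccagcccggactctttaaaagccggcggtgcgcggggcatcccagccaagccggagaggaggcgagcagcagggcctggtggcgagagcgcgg
ECPAS: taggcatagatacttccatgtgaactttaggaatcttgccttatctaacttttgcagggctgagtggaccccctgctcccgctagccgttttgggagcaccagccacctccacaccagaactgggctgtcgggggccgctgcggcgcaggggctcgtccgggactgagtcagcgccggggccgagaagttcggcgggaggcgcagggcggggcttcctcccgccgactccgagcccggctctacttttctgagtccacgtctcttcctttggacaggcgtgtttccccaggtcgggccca

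The H4C2 window held TATAAA beginning at -31 and at -223 from the start, and the H2AC4 window held it at -30 with 4 CCAAT matches upstream. The KRCC1, PFKFB3 and ECPAS windows held neither. The nearest edges of the run-on regions lay 65, 30, 2, 12 and 16 bp downstream of these starts, in the order printed. Among 27 listed promoters of 24 histone genes that held a region, 85.2% contained TATAAA and 85.2% contained CCAAT. Among 766 listed promoters of 497 other protein-coding genes with a region at the promoter, the shares were 6.66% and 35.4%. Over all 22199 listed promoters of protein-coding genes they were 9.47% and 34.7%. Histone genes are related in sequence and genes can have several listed starts, so these promoters are not independent of each other.

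The libraries were shallow. The deposited gene counts summed to 19581 and 6581 in hNABP2 KO, 11091 and 7553 in hNABP1 KO, and 11981 and 5883 in WT (repeats 1 and 2 in each). NABP2 itself had 4 and 3 counts in hNABP2 KO against 4 and 0 in WT. NABP1 had 0 and 1 in hNABP1 KO against 1 and 0 in WT. Counts this low do not check the labels, and hNABP2 KO, hNABP1 KO and WT below mean the libraries so labelled. Of 11 fibroblast or fibrosarcoma markers, 7 had counts in these libraries: VIM, FN1, COL5A1, THY1, SPARC, TAGLN and LOX. COL1A1, COL1A2, COL3A1 and S100A4 had none. Together the markers took 0.526% to 3.23% of the counts. Epithelial markers (4 of 8 with counts) took 0.0265% to 0.0631%, leukocyte markers (2 of 7) 0% to 0.0334% and neural markers (4 of 5) 0% to 0.0397%.

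Nearly every region was seen once. Of the 1691 regions, 1608 (95.1%, exact Clopper-Pearson 95% interval 94.0% to 96.1%) were called in 1 library and 83 (4.91%, 3.93% to 6.05%) in 2 or more. These intervals cover counting error only. The 83 shared regions comprised 59 called in 2 libraries, 10 in 3, 8 in 4 and 6 in 5, and none was called in all 6. The median region was 220 bp wide and the regions covered 418.3 kb in all. Libraries of repeat 1 had the most regions in common. The 3 pairs of repeat 1 libraries had 18 to 40 regions in common and the 3 pairs of repeat 2 libraries 6 to 15, while the 3 pairs of the same genotype had 6 to 16 and the 6 pairs that shared neither had 4 to 17. The largest overlap, 40 regions, joined repeat 1 of the 2 knockout labels: it was 16.5% of the 243 regions of hNABP2 KO repeat 1 and 7.72% of the 518 of hNABP1 KO repeat 1. The 16 regions common to both hNABP2 KO repeats were 6.58% of the regions of repeat 1 and 4.73% of the 338 of repeat 2. The 13 common to both hNABP1 KO repeats were 2.51% and 3.02%, and the 6 common to both WT repeats were 6.38% and 3.08%. Of the 83 shared regions, 37 were called only in repeat 1 libraries, 10 only in repeat 2 libraries and 36 in both.

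In the libraries of repeats 1 and 2 the number of peaks was higher under both knockout labels than in WT. Peaks numbered 243 and 338 in hNABP2 KO, 518 and 431 in hNABP1 KO and 94 and 195 in WT, so neither knockout label overlapped WT. Means were 290.5 ± 67.2 for hNABP2 KO against 144.5 ± 71.4 for WT, a difference of 146 (ratio 2.01), and 474.5 ± 61.5 for hNABP1 KO against the same WT libraries, a difference of 330 (ratio 3.28; SD, n = 2 each). In the two-sided exact permutation test over libraries both differences had p = 0.333, the smallest that 2 against 2 can give, and 0.667 after Benjamini-Hochberg adjustment over 6 comparisons. That test cannot pass a threshold of 0.05 at this number of libraries. The excess was made mostly of weak peaks: with peaks of -log10 q of 5 or more alone, there were 105 and 61 in hNABP2 KO, 74 and 56 in hNABP1 KO and 56 and 32 in WT, and the differences of the means shrank to 39 and 21. At that cutoff hNABP1 KO no longer stood apart from WT, with 56 peaks in a library of each (exact permutation p = 0.667). Both hNABP2 KO libraries stayed above WT (exact permutation p = 0.333). Peaks per 10000 gene counts were 124.1 and 513.6 for hNABP2 KO, 467.0 and 570.6 for hNABP1 KO, and 78.5 and 331.5 for WT. On that scale the libraries of hNABP2 KO and WT overlapped (exact permutation p = 0.667). In repeat 3, which is not part of these regions, hNABP2 KO had fewer peaks than WT. There the lists held 95 peaks in hNABP2 KO, 9965 in hNABP1 KO and 264 in WT.

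**Figure D1:**
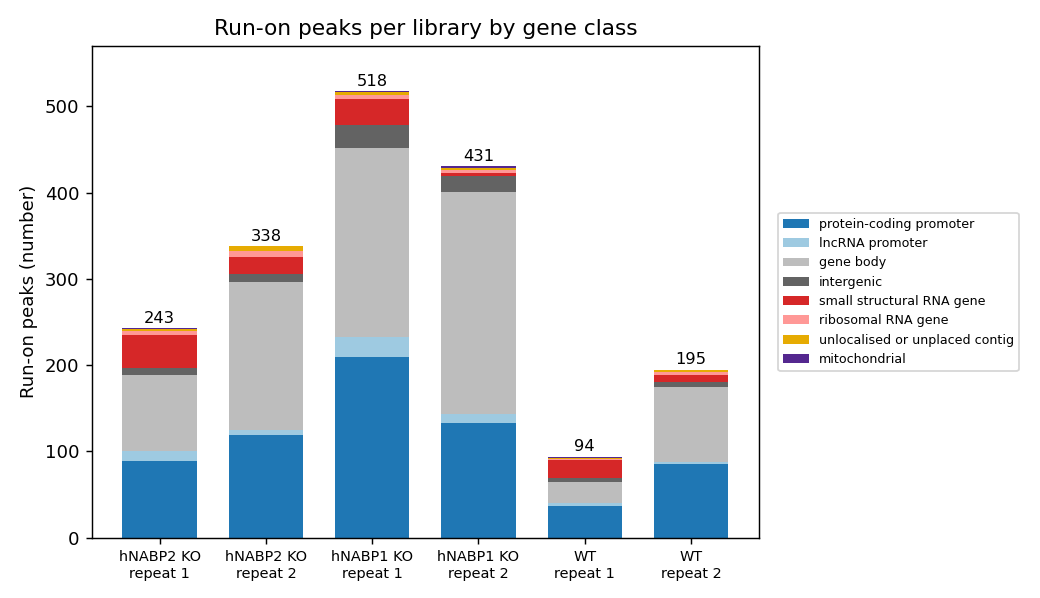
Number of run-on peaks in each of the 6 libraries (bars, with the total above), divided by the gene class of the region that holds the peak. The libraries labelled hNABP1 KO are tallest at 518 and 431, WT shortest at 94 and 195, and promoters and gene bodies make up most of every bar.

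The fold of a peak is the authors' own value, the enrichment at its summit, and it depends on the depth and background of its library. Many peaks were weak. In 4 of the 6 libraries a large block of peaks had nearly the same low fold: 49.1% of peaks lay within 0.1 of a fold of 3 in hNABP2 KO repeat 2, 50.4% in hNABP1 KO repeat 1, 46.6% in hNABP1 KO repeat 2 and 48.2% in WT repeat 2. In the remaining pair the shares were 0.412% in hNABP2 KO repeat 1 and 0% in WT repeat 1, the 2 deepest libraries. Median fold was 4.64 and 3.12 in hNABP2 KO, 2.95 and 3.61 in hNABP1 KO, and 5.13 and 3.06 in WT. The groups overlapped, and the differences from WT of -0.219 for hNABP2 KO and -0.816 for hNABP1 KO had exact permutation p of 1.00 and 0.667. Within the libraries with the block, the low peaks lay in promoters less often. In hNABP1 KO repeat 2, 19.1% of peaks with a fold up to 3.1 were in promoter regions against 46.4% of those above it, and in hNABP2 KO repeat 2 the shares were 26.6% and 47.3%. In hNABP1 KO repeat 1 they were 39.1% and 51.9%, and in WT repeat 2 40.8% and 49.5%. The overlap with anti-hNABP2 ChIP peaks moved the same way in these 4 libraries, at 13.4% and 36.9% in hNABP1 KO repeat 2 and 28.6% and 37.1% in WT repeat 2. In the remaining libraries it went the other way, at 44.2% of 43 low peaks and 28% of 200 higher ones in hNABP2 KO repeat 1, and 54.5% of 11 and 37.3% of 83 in WT repeat 1. Their promoter shares were 48.8% and 39.5% in hNABP2 KO repeat 1 and 36.4% and 43.4% in WT repeat 1.

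**Figure D2:**
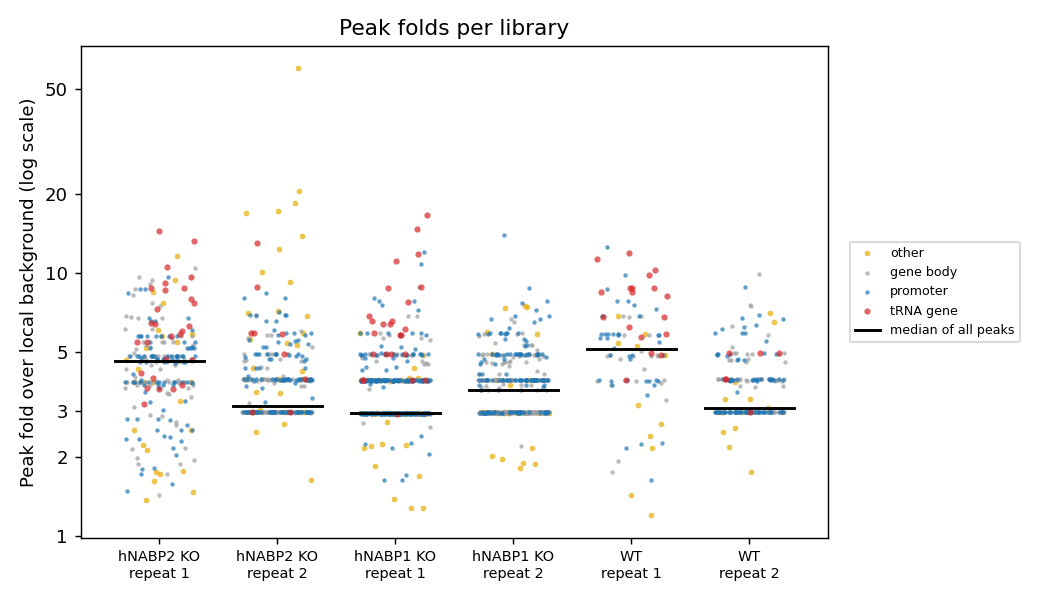
Fold of the highest peak of each region in each library (points, log axis), coloured by gene class, with the median of all peaks of the library as a black line. Dense rows of points near a fold of 3 are seen in 4 libraries, and the highest point, at 60.1, is in hNABP2 KO repeat 2.

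By gene class, 835 regions (49.4%) lay in gene bodies, 638 (37.7%) at promoters of protein-coding genes, 76 (4.49%) on small structural RNA genes, 69 (4.08%) between genes, 55 (3.25%) at lncRNA promoters, 10 on contigs not placed on a chromosome arm, 7 on ribosomal RNA genes and 1 on the mitochondrial genome. A promoter here is within 1000 bp of a gene start, and gene bodies include 43 regions in pseudogenes and 18 in transcribed pseudogenes. Promoters of both kinds held 693 regions (41.0%, 38.6% to 43.4%), whereas such windows cover 3.12% of the chromosomes. Protein-coding and lncRNA genes from end to end cover 52.8%. These coverages are shares of bases, and a region counts once it comes within the window, so they are unlike the shares of regions. The promoter share of peaks was 41.2% and 37.0% in hNABP2 KO, 45.0% and 33.2% in hNABP1 KO, and 42.6% and 45.1% in WT. It differed from WT by -4.77 percentage points in hNABP2 KO (39.1% ± 2.95 against 43.8% ± 1.82; SD, n = 2 each; exact permutation p = 0.333, adjusted 0.667), with no overlap of the libraries. In hNABP1 KO, at 39.1% ± 8.35, the libraries overlapped with WT and the exact p was 0.667. The sign of both differences turned when only peaks of -log10 q of 5 or more were used.

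Recurrence depended on class. Structural RNA genes, the mitochondrial genome and contigs made up 94 of the 1691 regions (5.56%), but 37 of the 83 shared ones (44.6%, 33.7% to 55.9%) and 20 of the 24 called in 3 or more libraries (83.3%, 62.6% to 95.3%). Among regions of 1 library they were 3.54%. Of 835 gene-body regions 9 were called more than once (1.08%), against 34 of 638 protein-coding promoters (5.33%), 25 of 76 small structural RNA genes (32.9%) and 6 of 7 ribosomal RNA regions.

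All 6 regions called in 5 libraries belonged to this structural group. The contig region chr22_KI270733v1_random:125202-125695 had folds of 60.1 in hNABP2 KO repeat 2, 2.73 and 7.51 in the hNABP1 KO repeats and 2.41 and 3.06 in WT. The fold of 60.1 was the highest of all 1819 peaks and stood far above the other libraries at this place. The region on RNA28SN3, a 28S ribosomal RNA gene, at chr21:8397368-8398197, had 3.87 and 18.5 in hNABP2 KO, 4.01 and 7.35 in hNABP1 KO and 2.16 in WT repeat 1. RNA45SN3, the 45S precursor of the same copy, at chr21:8396034-8396912, had 1.76 and 17.3 in hNABP2 KO, 2.16 and 5.96 in hNABP1 KO and 7.04 in WT repeat 2. For RNA45SN2, at chr21:8213043-8213878, the folds were 2.13 and 13.8 in hNABP2 KO, 4.36 and 2.16 in hNABP1 KO and 2.49 in WT repeat 2. Ribosomal RNA genes are near-identical copies, and no source says how reads were divided among them, so the copies cannot be told apart. In all 4 of these regions hNABP2 KO repeat 2 held the highest fold, and hNABP2 KO repeat 1, where it was called, stayed at 3.87 or below.

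RN7SL1, the 7SL RNA of the signal recognition particle, at chr14:49586591-49586870, had folds of 1.37 and 12.4 in hNABP2 KO, 1.38 and 1.88 in hNABP1 KO and 1.20 in WT repeat 1. Its near copy RN7SL2, at chr14:49862562-49862838, had 1.62 and 5.62 in hNABP2 KO and 1.28 and 1.96 in hNABP1 KO, with no peak in WT. RPPH1, the RNA of the RNase P that trims tRNA precursors, at chr14:20343108-20343385, was the most even: 2.53 and 1.64 in hNABP2 KO, 2.2 and 1.90 in hNABP1 KO and 2.19 in WT repeat 2. High fold and high gene counts did not go together for 7SL. RN7SL1 had 54 counts and 1 count in hNABP2 KO, 11 and 1 in hNABP1 KO, and 13 and 0 in WT, so the fold of 12.4 came from a library with 1 count of the gene.

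**Figure D3:**
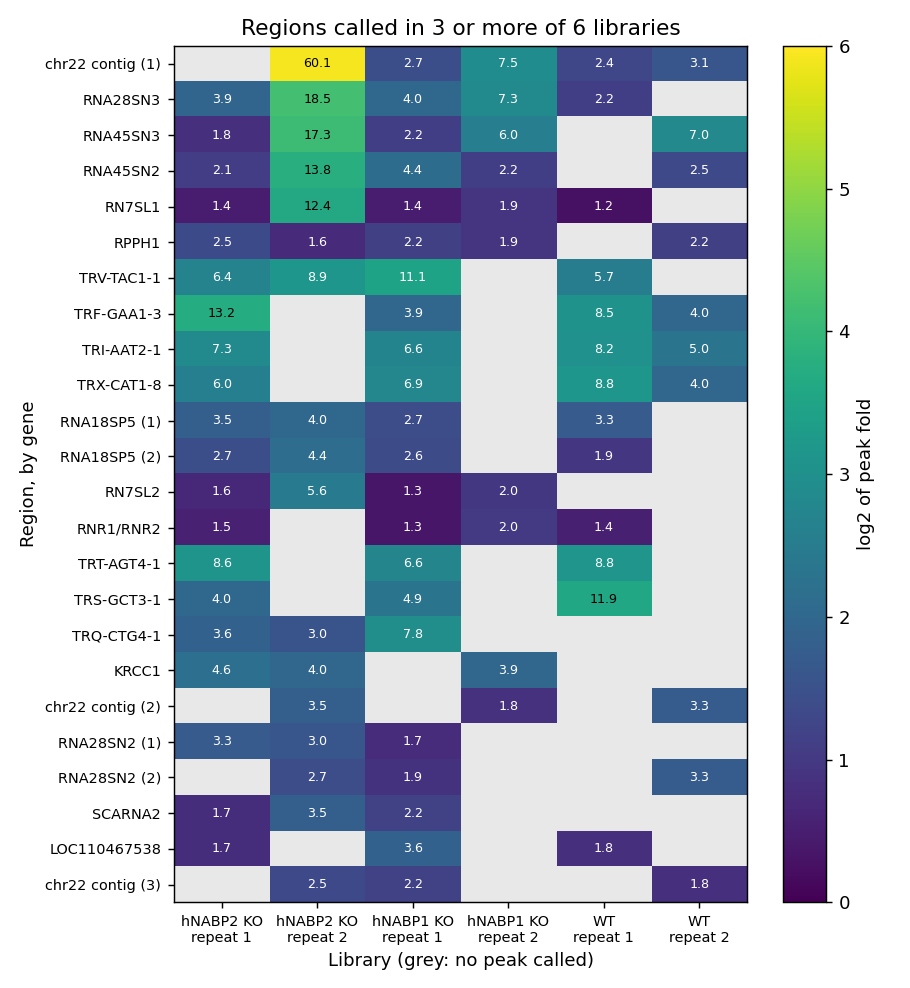
The 24 regions called in 3 or more of the 6 libraries, named by gene and ordered by the number of libraries and then by mean fold, with the fold printed in each cell and coloured on a log2 scale (grey is no peak called). Ribosomal, 7SL, RNase P and tRNA genes fill most rows, and the brightest cell is the contig region at 60.1 in hNABP2 KO repeat 2.

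Another 8 regions were called in 4 libraries and 10 in 3. These were chosen for naming after their values were seen. They included 2 regions of the 18S ribosomal pseudogene RNA18SP5 and the mitochondrial ribosomal RNA genes RNR1 and RNR2, which had folds of 1.47 in hNABP2 KO repeat 1, 1.28 and 2.02 in hNABP1 KO and 1.43 in WT repeat 1. SCARNA2, a Cajal body RNA that guides the modification of spliceosomal RNAs, had 1.72 and 3.5 in hNABP2 KO and 2.23 in hNABP1 KO repeat 1. The only protein-coding promoter in 3 libraries was that of KRCC1, at chr2:88055347-88055781, with 4.58 and 3.95 in hNABP2 KO, 3.92 in hNABP1 KO repeat 2 and no peak in WT.

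Transfer RNA genes, which polymerase III transcribes from promoters inside the gene, were the largest recurring family. The regions held 57 of the 465 tRNA genes in RefSeq (12.3%, 9.42% to 15.6%) in 56 regions, 22 of them on chromosome 6, where 155 of the tRNA genes lie. They covered 20 of 22 amino-acid classes; tRNA genes for tryptophan and elongator methionine had none, while the initiator methionine had 4 of 8 genes with a region. Serine had 7 regions, lysine 6, and threonine, glutamine and valine 4 each. The number of peaks in tRNA regions was 28 and 9 in hNABP2 KO, 25 and 0 in hNABP1 KO, and 18 and 6 in WT. As a share of peaks this was 11.5% and 2.66% in hNABP2 KO, 4.83% and 0% in hNABP1 KO (0 of 431, exact 95% interval up to 0.852%), and 19.1% and 3.08% in WT. Repeat 1 exceeded repeat 2 under all 3 genotypes: 47 of the 56 regions were called in a repeat 1 library, 15 in a repeat 2 library and 6 in both.

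In the 5 libraries with tRNA peaks, hNABP1 KO repeat 2 having none, the median tRNA fold was above that of gene bodies and of protein-coding promoters. Their median fold was 6.15 and 5.87 in hNABP2 KO, where gene bodies had 4.48 and 2.96 and protein-coding promoters 4.58 and 3.94. In hNABP1 KO repeat 1 it was 6.16, against 2.95 for gene bodies and 3.89 for promoters. In WT it was 8.34 and 4.46, against 4.85 and 2.98 for gene bodies and 5.49 and 3.94 for promoters. The highest tRNA fold, 16.7, was at TRK-TTT5-1, a lysine tRNA gene, in hNABP1 KO repeat 1, and the same gene had 14.5 in hNABP2 KO repeat 1 and no peak in the other libraries. TRF-GAA1-3, a phenylalanine tRNA gene, had 13.2 in hNABP2 KO repeat 1, 3.93 in hNABP1 KO repeat 1, and 8.48 and 3.97 in WT. TRV-TAC1-1, a valine tRNA gene, had 6.42 and 8.89 in hNABP2 KO, 11.1 in hNABP1 KO repeat 1 and 5.74 in WT repeat 1. TRI-AAT2-1, for isoleucine, and TRX-CAT1-8, for the initiator methionine, had peaks in hNABP2 KO repeat 1 (7.34 and 6.02), hNABP1 KO repeat 1 (6.57 and 6.88) and both WT repeats (8.19 and 4.96, and 8.82 and 3.97). All of these 4-library tRNA genes were called in WT and under both knockout labels. No tRNA gene with a region is in the deposited count table, and many tRNA genes have identical copies, so their levels could not be set beside the peaks.

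Other short RNA genes were called mostly once. VTRNA1-1, a vault RNA, had a fold of 11.6 in hNABP2 KO repeat 1 and VTRNA1-3 had 7.07 in hNABP2 KO repeat 2. SCARNA6 had 17.0 in hNABP2 KO repeat 2, the fifth highest fold of all. TERC, the telomerase RNA, had 2.23 in hNABP2 KO repeat 1, and RMRP, the RNA of RNase MRP, had 2.57 in WT repeat 2. Of 13 polymerase III and structural RNA genes listed, 6 held a region, and of 22 spliceosomal and other snRNA genes found in the reference, none did.

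Replication-dependent histone genes supply histones during S phase, and most stand in clusters on chromosome 6. There were 27 regions at histone genes, 25 of them on chromosome 6, and they overlapped 28 of 79 histone genes (35.4%, 25.0% to 47.0%). They covered H2A (8 regions), H2B (8), H4 (6) and H3 (5). All 27 came from repeat 1 libraries: 25 peaks were in hNABP2 KO, 9 in hNABP1 KO and 5 in WT, and in repeat 2 there were none under any genotype. Repeat 1 of hNABP2 KO was the deepest of the 6 libraries, and without it 14 histone regions remained. Of the 27, 12 were called in 2 libraries. H4C2 had folds of 4.64 in hNABP2 KO repeat 1 and 3.44 in WT repeat 1, and its neighbour H2AC4 had 4.14 and 2.26. H3C2 had 1.80 in hNABP2 KO and 2.24 in WT, and H2BC5 had 1.81 and 2.17, so that WT was higher at these genes. H3C3 had 2.80 in hNABP2 KO repeat 1 and 1.71 in hNABP1 KO repeat 1, and H3C10 had 3.03 and 2.16. Histone folds were low, with a median of 2.53 in hNABP2 KO repeat 1, 2.16 in hNABP1 KO repeat 1 and 2.24 in WT repeat 1, below the median of all peaks in each of these libraries.

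The gene counts showed less of a contrast. The 26 histone genes with a region that are in the count table took 0.230% and 0.0608% of the counts in hNABP2 KO, 0.153% and 0.0794% in hNABP1 KO, and 0.200% and 0.119% in WT. In the libraries without NTP the shares were 0.0948% and 0.0357% in hNABP2 KO, 0.0747% and 0.0941% in hNABP1 KO, and 0.0325% and 0.0759% in WT. The share was higher with NTP than without it in all pairs but hNABP1 KO repeat 2. These shares rest on 45 and 4 counts in hNABP2 KO, 17 and 6 in hNABP1 KO, and 24 and 7 in WT with NTP. A single gene, H2AC21, gave 21 of the 45 counts in hNABP2 KO repeat 1, 5 of the 17 in hNABP1 KO repeat 1 and 13 of the 24 in WT repeat 1. Without it, a choice made after seeing the data, the shares with NTP were 0.123% and 0.0152% in hNABP2 KO, 0.108% and 0.0397% in hNABP1 KO, and 0.0918% and 0.0510% in WT. In the libraries without NTP they were then 0.0854% and 0.0357% in hNABP2 KO, 0.0597% and 0.0628% in hNABP1 KO, and 0.0325% and 0.0190% in WT. The share was then lower with NTP in hNABP2 KO repeat 2 as well, on 1 count with NTP and 3 without. The part of library depth in the histone peaks was not tested. No histone region overlapped a run-on peak of repeat 3.

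**Figure D4:**
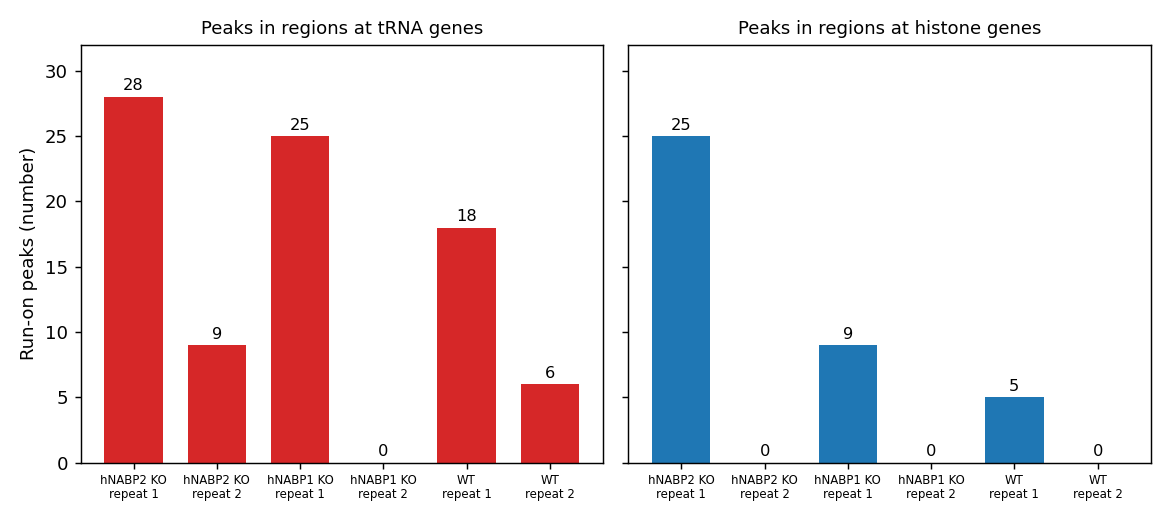
Number of run-on peaks in regions at tRNA genes (left) and at histone genes (right) in each library. Repeat 1 exceeds repeat 2 in both panels, with 28, 25 and 18 tRNA peaks in the repeat 1 libraries and no histone peak in any repeat 2 library.

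Few regions were called in both repeats of 1 genotype and in no other genotype. There were 3 for hNABP2 KO among 565 regions, 5 for hNABP1 KO among 935, and 2 for WT among 283. The 3 of hNABP2 KO were a region of RNA45SN3 at chr21:8391369-8391920 with folds of 5.20 and 7.19, TRQ-CTG9-1, a tRNA entry that RefSeq lists as a pseudogene, with 9.38 and 4.93, and SCARNA13, a Cajal body RNA, with 1.77 and 5.33. The 5 of hNABP1 KO were all promoters of protein-coding genes. PFKFB3, an enzyme that controls the main activator of glycolysis, had 4.92 and 6.85, and ECPAS, a proteasome adaptor and scaffold, had 3.93 and 7.83. GMCL1 had 4.92 and 6.20, the ETS-family repressor ETV6 had 3.89 and 4.79, and the zinc finger gene ZNF548 had 2.95 and 4.93. Several of these calls were weak. In hNABP1 KO repeat 1, -log10 q was 1.47 for ZNF548, 2.83 for ETV6 and 3.29 for ECPAS. PFKFB3 and GMCL1 there had the same -log10 q, 5.51, as well as the same fold. The fold of 2.95 at ZNF548 lay in the block of peaks near a fold of 3. Of the 2 of WT, TRP-TGG3-2, a proline tRNA gene, had 6.23 and 2.98, with -log10 q of 4.86 and 1.95. A further 35 regions were called under both knockout labels and not in WT, and 19 under all 3 genotypes; a list with more peaks meets others more often.

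Beyond the histone genes, 22 protein-coding promoter regions were called in 2 or more libraries, 11 in both repeats and 7 in WT. Of the 22, 18 (81.8%) overlapped an anti-hNABP2 ChIP peak of either ChIP repeat, beside 61.9% of all 693 promoter regions. Only the promoters of KRCC1, ECPAS, EPM2A and ADNP2 met a peak of each of the 2 ChIP repeats. FAM3C had 3.89 in hNABP1 KO repeat 1 and 8.73 in WT repeat 1. P4HA1, a collagen prolyl hydroxylase subunit, had 7.59 in hNABP1 KO repeat 1 and 3.92 in WT repeat 1. NR1D2, a circadian nuclear receptor, had 5.83 in hNABP2 KO repeat 2 and 2.96 in hNABP1 KO repeat 2. SUPT20H, a subunit of the SAGA coactivator, had 3.94 in hNABP1 KO repeat 2 and 2.98 in WT repeat 2. Among the 7 protein-coding promoters with the highest folds, each seen once, 5 are named here, chosen after their values were seen. ANTXR1, an anthrax toxin receptor, had 14 in hNABP1 KO repeat 2. PPAT, the first enzyme of purine synthesis, had 12.6 in WT repeat 1, and POLR3E, a subunit of RNA polymerase III, had 12.0 in hNABP1 KO repeat 1. RAB21, an endosomal GTPase, had 9.66 in hNABP2 KO repeat 1, and MDN1, a ribosome assembly factor, had 8.87 in WT repeat 2.

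Gene lists gave a similar picture. Over all 20050 protein-coding genes 1349 (6.73%) held a region, counted as an overlap with the gene or its promoter, so long genes have more room for one. Of 29 replication-dependent histone genes listed, 19 held a region (65.5%). The list was shorter than the full set of 79 histone genes, of which regions overlapped 28 (35.4%). All 27 histone regions came from repeat 1 libraries. Of 20 immediate early genes 2 did, FOS with a fold of 3.93 in hNABP1 KO repeat 1 and ZFP36 with 2.94 in hNABP1 KO repeat 2. Among 14 heat shock and chaperone genes there were 2, DNAJB1 with 8.04 in hNABP1 KO repeat 1 and HSP90AB1 with 3.1 in hNABP2 KO repeat 1. Of 49 cytosolic ribosomal protein genes 2 held a region (4.08%), RPS2 with 6.67 in WT repeat 2 and RPL4 with 4.52 in hNABP1 KO repeat 2. Collagen and extracellular matrix genes had 2 of 23, cytoskeleton and linker genes 3 of 24, and the 13 glycolysis genes none. Of 17 SOSS and Integrator genes 2 held a region: NABP2, with 2.92 in hNABP1 KO repeat 1, and INTS8 with 3.94 in hNABP1 KO repeat 2. Of 10 nuclear lncRNAs only MALAT1 held any, at 3 separate places in its body, with 1.95 and 3.21 in hNABP2 KO and 2.21 in hNABP1 KO repeat 2.

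Regions at promoters lay just inside the gene. Starts on chromosome 8 were not used here. Of 1529 regions outside structural RNA genes and contigs on the chromosomes with a listed start, 419 (27.4%) had their centre 0 to 499 bp downstream of the nearest listed start, 92 (6.02%) up to 1000 bp upstream, and 47 (3.07%) 500 to 1000 bp downstream. Within 1000 bp the median centre was 175 bp downstream. For the histone regions 22 of 27 (81.5%) fell 0 to 499 bp downstream, with a median of 256 bp.

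ChIP of hNABP2 in WT cells gives a readout that did not enter the choice of regions. Of the 1691 regions, 484 (28.6%, 26.5% to 30.8%) overlapped an anti-hNABP2 ChIP peak of either repeat, while those peaks cover 0.148% of the chromosomes. The first is a share of regions and the second a share of bases, so they are unlike measures. Nearly all of the overlap was at promoters: 429 of 693 promoter regions (61.9%, 58.2% to 65.5%) overlapped, against 28 of 835 gene-body regions (3.35%, 2.24% to 4.81%). The share of all promoters that hold a ChIP peak was not computed. The promoter overlap therefore has no background here. Most of this overlap was with ChIP repeat 1 alone: overlap with a peak of each of the 2 ChIP repeats was found for 121 of the 1691 regions (7.16%), 113 of the 693 promoter regions (16.3%, 13.6% to 19.3%) and 6 of the 835 gene-body regions (0.719%). Regions at tRNA genes overlapped in 3 of 56 cases (5.36%, 1.12% to 14.9%) and histone regions in 19 of 27 (70.4%), every histone overlap being with ChIP repeat 1. Of regions overlapping ChIP and scored for distance, 300 of 446 (67.3%) had their centre 0 to 499 bp downstream of a start, against 119 of 1083 (11%) of those that did not overlap. By library, 30.9% and 31.1% of peaks overlapped in hNABP2 KO, 29.9% and 25.5% in hNABP1 KO, and 39.4% and 32.8% in WT. The libraries labelled hNABP2 KO thus had peaks at hNABP2 sites of WT cells. Their shares lay below both WT values, and so did the shares of hNABP1 KO. These differences were not tested.

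**Figure D5:**
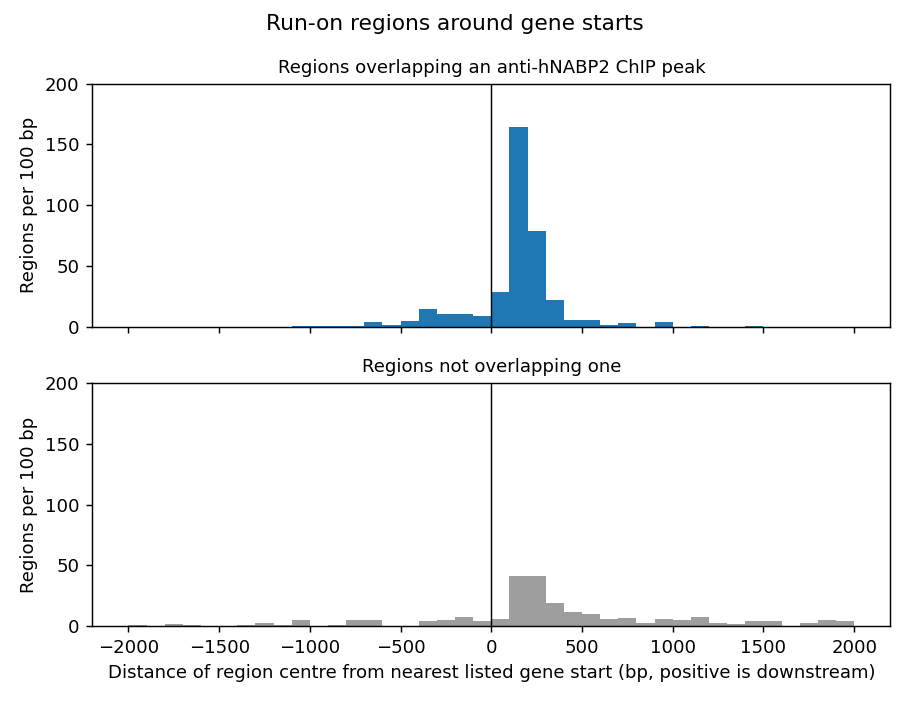
Number of regions per 100 bp of distance between the centre of the region and the nearest listed gene start, drawn to 2000 bp on either side, for regions that overlap an anti-hNABP2 ChIP peak (top) and regions that do not (bottom). The regions that overlap cluster just downstream of the start, where 300 of 446 have their centre within 0 to 499 bp.

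Repeat 3, with 115528 to 164357 gene counts in its libraries with NTP, was not used to choose the regions. Of the 1691 regions, 281 (16.6%, 14.9% to 18.5%) overlapped a repeat 3 peak, and 278 of them met the list of hNABP1 KO repeat 3, which holds 9965 peaks. The lists of hNABP2 KO repeat 3 (95 peaks) and WT repeat 3 (264 peaks) met 6 regions each. Without the hNABP1 KO library of repeat 3 the share was 0.710%, so nearly all of the overlap was with that library. Repeat 3 peaks cover 0.122% of the chromosomes, a share of bases and not of regions. Of the 281 regions, 229 (81.5%) also overlapped ChIP. However, 238 of the 281 were promoter regions, a class of which 61.9% overlapped ChIP. Of the repeat 3 peaks themselves, 41.1% in hNABP2 KO, 49.0% in hNABP1 KO and 79.2% in WT overlapped ChIP. Promoter regions met repeat 3 in 34.3% of cases and gene-body regions in 2.04%. DRIP peaks, which mark RNA:DNA hybrids, met 17 regions (1.01%), among them RNA45SN2, RNA45SN3, RN7SL1, RN7SL2 and the mitochondrial region.

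The gene counts tested few of these genes. Of 1481 genes with a region, 1295 are in the count table, and 4 of them passed the filter on low counts among the 129 genes tested in the 9 libraries with NTP. No gene was called, 0% of the 129 in hNABP2 KO against WT and 0% in hNABP1 KO against WT, by edgeR's quasi-likelihood test with Benjamini-Hochberg adjustment. At unadjusted p under 0.05 the test gave 0 and 1 genes, and DESeq2 called none. With genes of 10 or more counts, 13447 in all, the same test again called 0 genes in either comparison, but with the repeat as a block it called 16 in hNABP1 KO against WT and 0 in hNABP2 KO against WT. Of the 16, SFR1 has a region, and it had 0, 0 and 59 counts in hNABP1 KO against 0, 0 and 4 in WT. The edgeR test gives no SE, so every SE of a log2 fold change here was worked back from its test statistic and is approximate. AHNAK, a giant scaffold protein gene, had 135, 1 and 21 counts in repeats 1 to 3 of hNABP2 KO, against 27, 1 and 16 in WT, a log2 fold change of 1.57 ± 1.57 (SE; edgeR adjusted p = 0.990). RN7SL1 had 54, 1 and 3 counts in hNABP2 KO, against 13, 0 and 7 in WT, a log2 fold change of 1.31 ± 1.42 (edgeR adjusted p = 0.990). MALAT1 had 7, 2 and 5 counts in hNABP1 KO, against 11, 6 and 30 in WT, a log2 fold change of -1.37 ± 0.798 (edgeR adjusted p = 1.00). RMRP had 21 to 85 counts in hNABP2 KO, 39 to 66 in hNABP1 KO and 66 to 84 in WT. The median log2 fold change of the 4 genes was 0.78 in hNABP2 KO and -0.41 in hNABP1 KO, beside 0.03 and 0.10 over the 129 genes tested.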

How the data were processed

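The authors deposited raw counts per gene for the run-on libraries and, per peak, a fold enrichment with its -log10 p and -log10 q, in MACS2's layout. Per the submitters' processing notes the tools were MACS2 2.2.1, SAMtools, Bowtie2 2.3.5 and cutadapt 1.18, on hg38; their order, settings, control libraries and strand setting are not given there. Per the labels' protocols the RNA libraries were made with a directional kit. Peaks were called per library. Each region took the class and name of a gene from RefSeq (GRCh38.p14), with 1000 bp around a start as promoter; 131 of 693 promoter regions were placed by either gene end because no start was listed. Exons and introns could not be separated and are both called gene body, unlike the plan. A region of 1 bp overlap or more was counted as shared; 95% intervals are exact Clopper-Pearson. For 13 ChIP repeat 1 peaks only the summit was at hand.

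Regions named are those of 5 or more libraries, up to 5 per genotype in both its repeats and in no other genotype, and the 5 highest folds; others named were chosen after their values were seen. A region that this rule names is not reported here. The regions, gene lists and tests were chosen with earlier results of these data known. Genotypes were compared with exact permutation tests, and gene counts with edgeR 4.0.16 (R 4.3.3, filterByExpr, TMM, threshold 0.05) in 1 model of the 9 libraries with NTP, with DESeq2 1.42.0 beside it. The edgeR steps were tried on simulated counts much deeper than these libraries, with large changes in highly counted genes only. That trial does not show the power of the test at the depth of these libraries. Python 3.11.15, scipy 1.17.1 and matplotlib 3.10.9 were used. With group means removed, each of 9 same-number pairs correlated at 0.172 to 0.473 over 13447 genes. The 18 different-number pairs correlated at -0.248 to 0.0111. Gene counts per library also differed between the repeat numbers, and removing group means forces positive and negative covariances between groups to balance. These values therefore cannot show whether repeat numbers pair the libraries. Alternatives were a wider merge of 500 bp, -log10 q of 5 or more, assembled chromosomes only, promoter windows of 500 and 2000 bp, 50% overlap, other count filters, a replicate block and leaving out each library.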

Additional observations from a re-analysis of the deposited data

How the results depend on the processing

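With peaks of -log10 q of 5 or more alone, 313 regions remained and 42 were shared, the difference in median fold for hNABP2 KO turned to 0.342, the promoter differences turned to 0.920 points for hNABP2 KO and 12.7 for hNABP1 KO, and the ChIP and repeat 3 shares were 42.8% and 23.6%. Merging peaks up to 500 bp apart gave 1 region in all 6 libraries. Asking for 50% of a region covered gave 24.0% for ChIP and 12.4% for repeat 3, and ChIP peaks present in both repeats gave 8.16%. Leaving out 1 library at a time gave 1231 to 1625 regions, 48 (without hNABP1 KO replicate 1) to 75 shared regions, with 50 without hNABP2 KO replicate 1, and 0 to 3 in all remaining libraries (1 without hNABP2 KO replicate 1, 3 without WT replicate 1, 2 without WT replicate 2). The median fold difference then ranged over -1.25 to 0.816 for hNABP2 KO and -1.85 to 0.219 for hNABP1 KO, and the promoter difference over -6.86 to -2.69 and -10.7 to 1.14 points, each turning sign except the promoter difference of hNABP2 KO. The cause of these changes was not tested. Histone regions numbered 14 without hNABP2 KO replicate 1 and 26 or 27 without any other library, and tRNA regions 44 to 56. The share of regions meeting repeat 3 was 16.2% to 18.1% without any 1 of the 6 libraries, and 0.710% without hNABP1 KO replicate 3, an alternative chosen after seeing the data like those for tRNA and histone regions. With the replicate block the peak numbers still differed by 146 and 330, with an exact sign-flip p of 0.5 each, the smallest 2 pairs allow, and no gene was called. Block and 10 or more counts together called 16 genes in hNABP1 KO against WT among 13447, against 0 at that filter without the block, of which SFR1 has a region (log2 fold change 4.63 ± 1.04, edgeR adjusted p = 0.0233); its counts in the 6 shallow libraries were 0. The block changed no other call.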
